A study of Sus scrofa with 18 samples.

Results

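PDK4, ANGPTL4, CPT1B and PPARGC1A are genes that set how far heart muscle burns fatty acids rather than glucose. They were followed here in the right ventricle of pigs before and after ligation of coronary arteries. Members were all probe sets (groups of short probes that report 1 transcript) that the array's probe-to-gene table assigns to exactly 1 of these symbols. This gave 6 of the 23935 tested probe sets: 2 for PDK4 (a brighter and a dimmer one, by mean level), 2 for ANGPTL4 (likewise), 1 for CPT1B and 1 for PPARGC1A, so all 4 genes were measured, of 6765 with a tested probe set. The 4 genes were chosen with changes between failure and baseline already known, so these changes are given as a description with no test. Values are log2 intensities, on which a difference of 1 is a doubling.

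Free wall tissue of the right ventricle was taken from 9 pigs of a cross of Hampshire, Yorkshire and Swedish Landrace, in failure and at baseline, which gave 18 arrays. Failure was brought about by tying off coronary arteries, which the series' title gives for all pigs. For 6 pigs (6, 8, 9, 11, 12 and 13) the failure sample is labelled with 120 min of ischemia. For the other 3 pigs (5, 10 and 14) the labels place the ligated arteries on this wall and define failure as a right atrial pressure above 20 mmHg. Whether both wordings describe 1 protocol is not stated. Both kinds of pig had a baseline sample, and no age or drug is given. The arrays hold no sample taken at the later time without ligation, so elapsed time and ligation cannot be told apart.

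Background on these genes comes from general knowledge. A heart at rest draws most of its energy from fatty acids and changes its mix of fuels with supply, hormones and oxygen. PDK4 is a kinase that switches off the pyruvate dehydrogenase complex and so keeps carbon from glucose out of the mitochondrial cycle. ANGPTL4 is a secreted inhibitor of lipoprotein lipase, the enzyme that frees fatty acids from blood lipoproteins at the vessel wall. CPT1B is the muscle form of the carnitine palmitoyltransferase that admits long-chain fatty acids to mitochondria. PPARGC1A encodes PGC-1alpha, a coactivator of the PPAR and ERR nuclear receptors and of mitochondrial gene programmes. PDK4, ANGPTL4 and CPT1B are targets of PPAR receptors, and PDK4 and ANGPTL4 also respond to glucocorticoids.

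The tissue carried a strong heart muscle signal, with 12 of 12 measured cardiomyocyte markers above the median level of all probe sets. Array medians lay between 5.59 and 5.66, so the distributions were close to equal on all arrays. RNA quality was followed by how far the 3′ control probe set of GAPDH exceeded its 5′ one in log2, which grows as RNA breaks down. It averaged 1.38 ± 0.97 in failure and 1.15 ± 0.61 at baseline (SD, n = 9 each). The change of 0.237 ± 0.556 (SD, n = 9; 6 of 9 pigs higher) did not pass an exact two-sided sign-flip permutation test (p = 0.246). With each pig left out it ran from 0.119 (without pig 13) to 0.322 (without pig 9), and it was 0.149 without pig 5. In the paired fit with limma, 0.0668% of all probe sets passed an adjusted p of 0.05 in either direction. Of the 6 member probe sets 0 passed, and 3 had an unadjusted p under 0.05, all higher, against 3.31% of all probe sets higher and 2.83% lower at that level. Since the genes were chosen with these values known, nothing is read from either count. The failure and baseline ranges overlapped for 6 of 6 member probe sets, and 0% of all probe sets had ranges apart.

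PDK4 was the brightest of the members at its own probe set, which lies at percentile 99.1 of all tested probe sets by mean level. In failure its level ran from 11.40 through a median of 12.38 to 13.03, against 11.27, 12.18 and 12.94 at baseline. The groups overlapped almost fully. PDK4 was higher in failure in 8 pigs and equal to 2 decimals in 1 (pig 14). The largest differences were 0.65 in pig 9, 0.45 in pig 11 and 0.37 in pig 8. Pigs 5, 10, 13 and 14 had differences of 0.08, 0.09, 0.04 and 0.00. The mean difference was 0.22 ± 0.22 (SD, n = 9; limma 95% interval 0.07 to 0.38), a 1.17-fold higher level (1.05 to 1.30). Values of this probe set were deposited with 2 decimals, as were those of 1473 probe sets in all, the brightest ANGPTL4 probe set among them. The other member probe sets held 4 or 5 decimals. Whether values with 2 decimals were processed differently is not stated and was not tested.

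The dimmer PDK4 probe set did not repeat this pattern pig by pig. Its level in failure ran from 10.34 through a median of 11.22 to 12.05, against 9.83, 10.97 and 11.87 at baseline. It was higher in failure in 7 pigs, by 0.28 to 0.70, and lower in pig 6 (-0.18) and pig 13 (-0.65). The mean difference was 0.25 ± 0.42 (SD, n = 9; 0.01 to 0.50). Across the 18 arrays the levels of the 2 PDK4 probe sets went together (r = 0.919), a description of arrays that come in pairs from 9 pigs. Their changes were not shown to do so over 9 pigs (r = 0.314, rho = 0.20, exact permutation p = 0.416 and 0.613, adjusted over 2 genes 0.796 and 0.982). In pig 13 the GAPDH 3′ minus 5′ difference was 2.17 in failure and 0.98 at baseline, the largest difference of any pig, and its part in the low PDK4 value was not tested.

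ANGPTL4 had the largest mean difference of the 6 member probe sets. At its brightest probe set the level in failure ran from 6.53 through a median of 7.16 to 8.10, against 6.15, 6.90 and 7.85 at baseline, so the groups overlapped. It was higher in failure in 8 of 9 pigs and lower in pig 10 (-0.10). Pig 12 stood highest with 1.01, followed by pig 5 with 0.57 and pig 8 with 0.47. The mean difference was 0.35 ± 0.31 (SD, n = 9; 0.16 to 0.55), a 1.28-fold higher level (1.11 to 1.46). PDK4 and ANGPTL4 were both higher in failure in 7 of 9 pigs. Of the 6 member probe sets 2 were higher in at least 8 of 9 pigs, as were 2.05% of all tested probe sets, and 3.91% of all were higher or lower in that many. Nothing is read from this count either, since the genes were chosen with these changes known. The 2 are the brightest PDK4 and ANGPTL4 probe sets, the members whose values were deposited with 2 decimals.

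The second ANGPTL4 probe set was dim, at percentile 37.6 of mean level. Its level in failure ran from 3.95 through a median of 4.69 to 5.86, against 4.23, 4.66 and 5.48 at baseline. It was higher in 4 pigs, lower in 4 and equal within 0.005 in 1, with a mean difference of 0.06 ± 0.35 (SD, n = 9; -0.16 to 0.27). The mean over both ANGPTL4 probe sets differed by 0.20. Their changes were not shown to go together over 9 pigs (r = 0.105, rho = -0.0167, exact permutation p = 0.796 and 0.982). The ANGPTL4 difference thus rests on 1 probe set.

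CPT1B stood at nearly the same level in both states. In failure it ran from 10.57 through a median of 10.90 to 11.32, against 10.54, 10.95 and 11.31 at baseline. The differences within pigs were small, from -0.25 in pig 9 to 0.22 in pig 6, and 5 pigs were higher, 3 lower and 1 equal within 0.005. The mean difference was -0.0015 ± 0.13 (SD, n = 9), and the interval of -0.12 to 0.12 bounds it to between 0.917-fold and 1.09-fold. The spread of CPT1B changes between pigs was at percentile 9.9 of all probe sets.

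PPARGC1A differed between states in both directions. In failure it ran from 9.04 through a median of 9.45 to 10.45, against 8.44, 9.70 and 10.72 at baseline. It was higher in failure in pigs 5 (0.62), 14 (0.34), 11 (0.25) and 9 (0.12). It was lower in pigs 6 (-0.44), 13 (-0.42), 12 (-0.35), 10 (-0.27) and 8 (-0.20). The mean difference of -0.04 ± 0.38 (SD, n = 9; -0.26 to 0.19) covers changes whose spread was at percentile 92.1 of all probe sets.

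**Figure D1:**
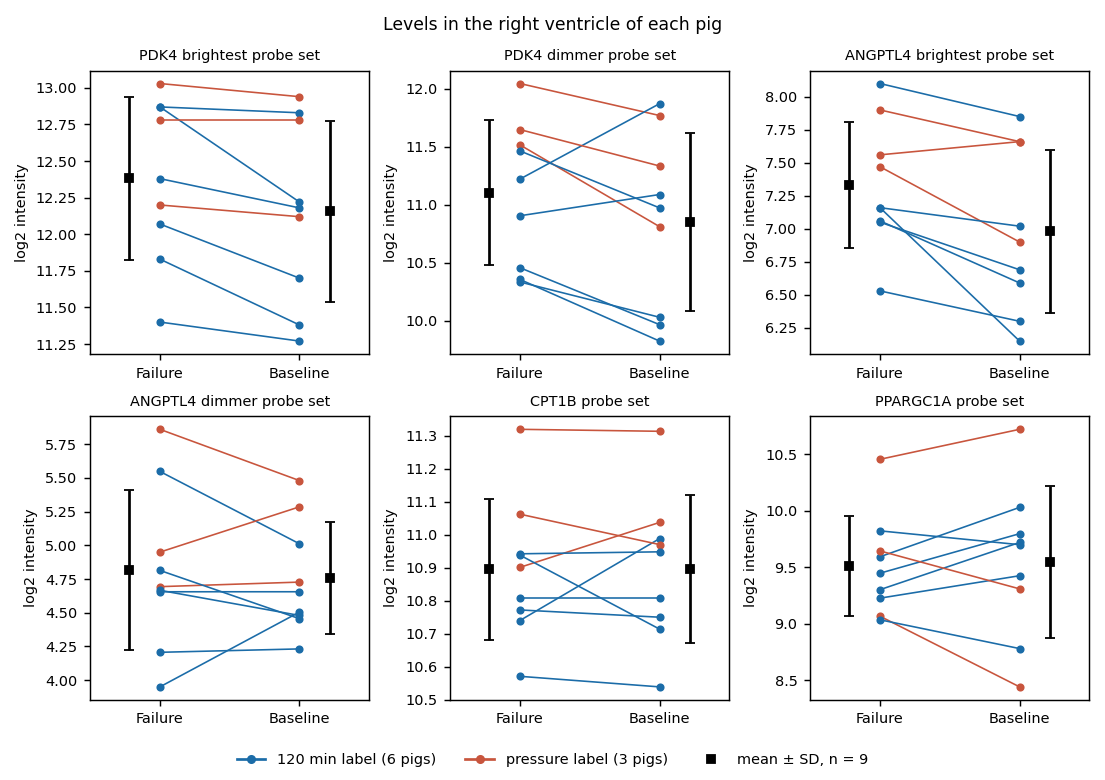
Levels (log2 intensity) of the 6 member probe sets in failure and at baseline, with 1 line per pig, coloured by how the failure sample is labelled, and black squares for mean ± SD (n = 9). In the PDK4 brightest panel 8 lines are higher on the failure side, whereas the CPT1B changes run from -0.25 to 0.22 and the PPARGC1A lines cross.

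**Figure D2:**
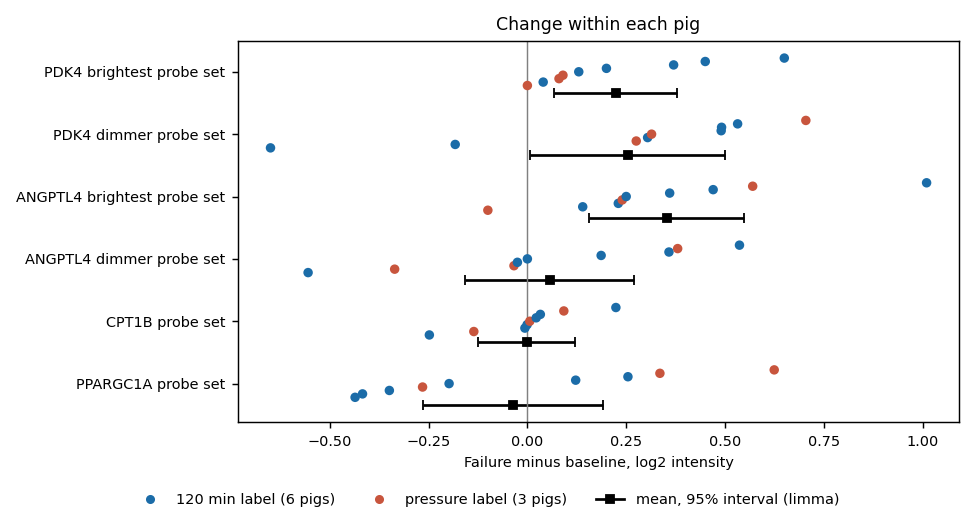
Failure minus baseline (log2 intensity) for the 6 member probe sets, with 1 point per pig and, under the points, the mean with limma's 95% interval. The means run from -0.04 (PPARGC1A) to 0.35 (ANGPTL4 brightest). The points of PPARGC1A, of both dimmer probe sets and of the brightest ANGPTL4 probe set (-0.10 to 1.01) are spread widely.

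Whether the 2 kinds of failure label went with different responses was tested as an interaction across all probe sets, a contrast not used to choose the genes. Pigs with the pressure label are given before those with the 120 min label. PDK4 at its brightest probe set changed by 0.06 ± 0.05 (SD, n = 3) and by 0.31 ± 0.23 (SD, n = 6), a difference of -0.25 (95% interval -0.56 to 0.06; limma adjusted p = 0.903). At its dimmer probe set the order was the other way, 0.43 ± 0.24 (SD, n = 3) and 0.16 ± 0.48 (SD, n = 6; adjusted p = 0.952 in limma). PPARGC1A changed by 0.23 ± 0.45 (SD, n = 3) and by -0.17 ± 0.29 (SD, n = 6), a difference of 0.40 (-0.04 to 0.85; limma adjusted p = 0.883). ANGPTL4 at its brightest probe set changed by 0.24 ± 0.34 (SD, n = 3) and by 0.41 ± 0.32 (SD, n = 6), a difference of -0.17 (-0.59 to 0.25; limma adjusted p = 0.966). The dimmer ANGPTL4 probe set differed by -0.08 (-0.55 to 0.39; limma adjusted p = 0.991) and CPT1B by -0.02 (-0.29 to 0.26; limma adjusted p = 0.998). Of the 6 member probe sets 0 passed in limma, where 0% of all probe sets passed. Before adjustment, limma's p lay below 0.05 for 1356 of the 23935 probe sets and for 0 of the 6 members. At that rate 6 probe sets are too few for the 0 to tell them from the rest. With 3 pigs against 6 the intervals stay wide, so equal responses are not shown.

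Baseline levels of the members varied more between pigs than their changes did. The SD of baseline levels between pigs was 2.82 times the SD of the changes for the brightest PDK4 probe set and 1.98 times for the brightest ANGPTL4 probe set. For CPT1B this ratio was 1.69 and for PPARGC1A 1.76, where the median probe set had 0.929. Pigs with a high baseline level also had a high level in failure, a comparison added after the data had been seen. Its r follows from the SDs of both states and of the changes, so it restates them and is no separate support. Over all probe sets both arrays of a pig matched each other best in 9 of 9 pigs. The same r was not computed for other probe sets, so nothing particular to the members is read from it. For the brightest PDK4 probe set the r between failure and baseline was 0.936 over 9 pigs (rho = 0.971, exact permutation p = 6.61e-05 and 8.82e-05, adjusted over 6 probe sets 0.000397 and 0.000529). For the brightest ANGPTL4 probe set it was 0.869 (rho = 0.824, exact permutation adjusted p = 0.00648 and 0.0264).

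For PPARGC1A the r between failure and baseline was 0.842 (rho = 0.667, exact permutation adjusted p = 0.00845 and 0.0707) and for CPT1B 0.817 (rho = 0.517, exact permutation adjusted p = 0.00997 and 0.162). Without the 2 pigs farthest from the median at baseline, r was 0.865 for PDK4 (pigs 11 and 12 left out), 0.81 for ANGPTL4 (pigs 6 and 10), 0.598 for PPARGC1A (pigs 5 and 10) and 0.212 for CPT1B (pigs 11 and 14). None of these passed after adjustment, and the relation of CPT1B rests on those pigs. Within the 6 pigs with the 120 min label r was 0.926 for PDK4, 0.857 for ANGPTL4, 0.745 for PPARGC1A and 0.518 for CPT1B. The 3 pigs with the pressure label are too few for such a value. At baseline these 3 averaged 12.61 ± 0.43 for PDK4, 7.41 ± 0.44 for ANGPTL4 and 11.11 ± 0.18 for CPT1B (SD, n = 3). The 6 others averaged 11.93 ± 0.59, 6.77 ± 0.61 and 10.79 ± 0.16 (SD, n = 6).

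The changes of the 4 genes were then compared between animals, to ask whether they move together. Over the 6 gene pairs and 9 pigs, with the brightest probe set of each gene, r ran from -0.574 (CPT1B with PPARGC1A) to 0.106 (PDK4 with PPARGC1A), and 0 pairs passed an exact two-sided permutation test (adjusted p from 0.643 to 0.896). PDK4 and ANGPTL4, each higher in 8 of 9 pigs at the brightest probe set, had an r of -0.195 and a rho of -0.25 (exact permutation p = 0.605 and 0.521). Pig 9, with the largest PDK4 difference, had an ANGPTL4 difference of 0.14. Pig 12, with the largest ANGPTL4 difference, had a PDK4 difference of 0.13. In 1 of 9 pigs (pig 11) all 4 genes were higher in failure, and in no pig were all 4 lower.

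CPT1B and PPARGC1A had the largest r in size (-0.574, rho = -0.45, exact permutation p = 0.107 and 0.23, adjusted 0.643 and 0.982). Without pigs 6 and 9 it was -0.623, and within the 6 pigs with the 120 min label it was -0.546. PDK4 and PPARGC1A gave values that depended on the pigs and probe sets used. Their r was 0.106 over 9 pigs (rho = -0.0667), 0.859 within the 6 pigs with the 120 min label (exact permutation p = 0.0292, adjusted p = 0.175) and -0.341 without pigs 9 and 11. With the dimmer PDK4 probe set it was 0.66 over 9 pigs (exact permutation p = 0.0441, adjusted p = 0.265). PDK4 with CPT1B had an r of -0.425 (rho = 0.0167) that turned to 0.227 without pigs 9 and 11. Over 9 animals, absence of a joint change is not shown by these values.

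**Figure D3:**
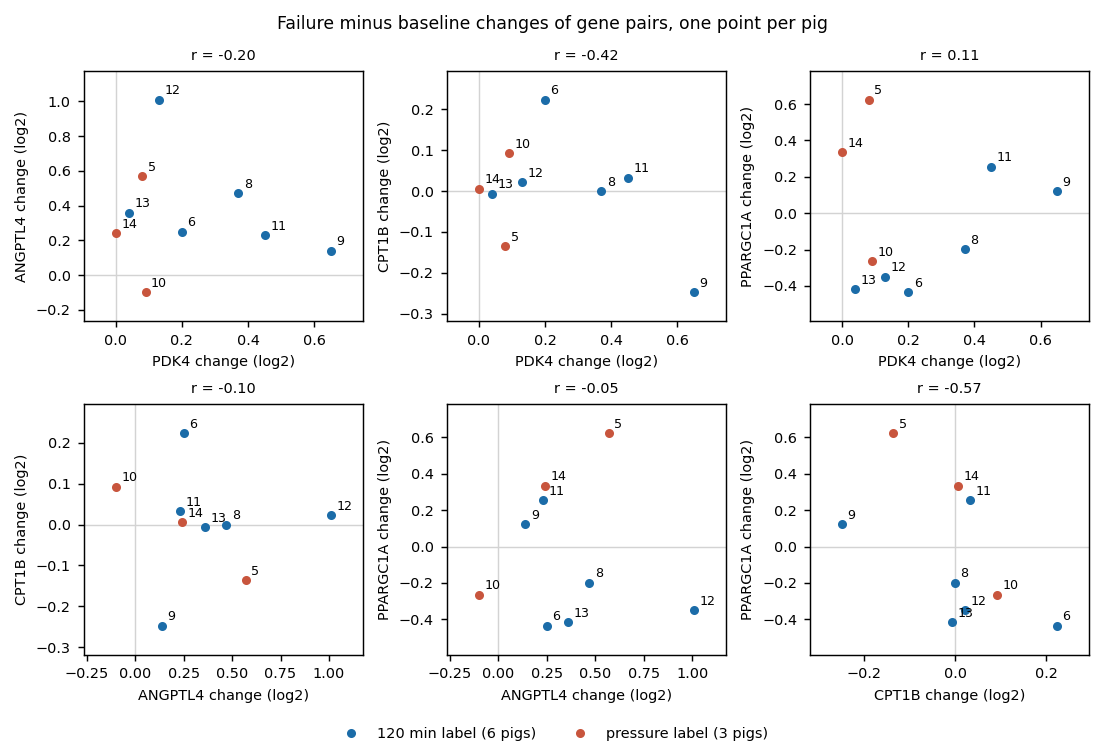
Failure minus baseline changes (log2) of each pair of genes, brightest probe sets, with 1 point per pig labelled by pig number and coloured by failure label. No panel shows the 9 pigs along a line, and the r above the panels runs from -0.574 to 0.106.

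By r, levels of all 6 gene pairs were positively related over 9 pigs in both states, although 0 of the 12 relations passed after adjustment within each state. In failure r ran from 0.387 (PDK4 with ANGPTL4) to 0.772 (ANGPTL4 with CPT1B; rho = 0.611, exact permutation p = 0.016 and 0.0869, adjusted over 6 pairs 0.0962 and 0.147). At baseline it ran from 0.0124 (CPT1B with PPARGC1A; rho = -0.267) to 0.727 (PDK4 with ANGPTL4; rho = 0.703, exact permutation p = 0.0319 and 0.0404, adjusted 0.0958 and 0.242). PDK4 with CPT1B at baseline had an r of 0.72 (rho = 0.55, exact permutation p = 0.0266 and 0.133, adjusted 0.0958 and 0.398). Within the 6 pigs with the 120 min label the r of PDK4 with ANGPTL4 was 0.226 in failure and 0.541 at baseline, and that of PDK4 with CPT1B was 0.462 and 0.703. Without pigs 11 and 12 the r of PDK4 with ANGPTL4 at baseline was 0.424 and that of PDK4 with CPT1B 0.515.

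**Figure D4:**
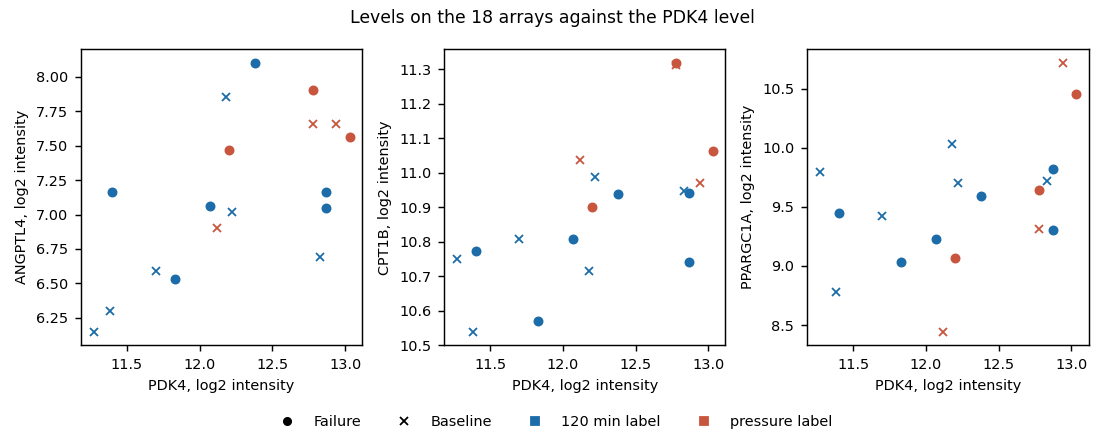
Levels (log2 intensity) of ANGPTL4, CPT1B and PPARGC1A against PDK4 on the 18 arrays, brightest probe sets, with circles for failure, crosses for baseline and colours for the failure label. In both states the pigs with the pressure label averaged higher than the others in PDK4, ANGPTL4 and CPT1B.

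The GAPDH 3′ minus 5′ change, as a sign of RNA quality, was set against the member changes over 9 pigs. For ANGPTL4 the r was 0.535 (rho = 0.767, exact permutation p = 0.137 and 0.0214, adjusted over 4 genes 0.306 and 0.0856) and for PDK4 -0.515 (rho = -0.417, exact permutation adjusted p = 0.306 and 0.514). For PPARGC1A it was -0.169 (rho = -0.333) and for CPT1B -0.0003 (rho = -0.117). Without pigs 5 and 13 these were 0.747, -0.324, -0.733 and 0.459. Within the 6 pigs with the 120 min label they were 0.465, -0.892, -0.704 and 0.284 (exact permutation p = 0.0181 and adjusted p = 0.0722 for PDK4). With this measure as a covariate in the paired fit, the difference was 0.27 for PDK4 and 0.28 for ANGPTL4.

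None of the other genes of these pathways passed in the paired fit, by the brightest probe set of each gene. The background was 0.0209% of all probe sets higher and 0.046% lower, with a median change of 0.0003. Among PPAR and fatty acid responsive genes other than the members, 0 of 18 passed and the median was -0.0075 (6 higher, 12 lower). In each direction 1 gene had an unadjusted p under 0.05, PLIN2 of the lipid droplet coat (0.24, 8 of 9 pigs higher, adjusted p = 0.403 in limma) and the mitochondrial carrier UCP2 (-0.16, 2 of 9 pigs higher, adjusted p = 0.753 in limma), both named after their values were seen. ACADM, the medium-chain acyl-CoA dehydrogenase, had a change of 0.0052 (95% interval -0.13 to 0.14). UCP3, another mitochondrial carrier of muscle, had -0.0070 (-0.15 to 0.14) at a dim probe set (4.55 in failure and 4.56 at baseline), so a steady level is not shown. FABP3, the fatty acid binding protein of heart, had -0.09 (-0.27 to 0.10).

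The pyruvate dehydrogenase complex, which PDK4 inhibits, was read together with its regulators and the pyruvate carrier, and 0 of these 8 measured genes passed (0 at an unadjusted p under 0.05). All 8 mean changes lay below 0 at their brightest probe sets, where 46.4% of all measured genes lay above 0. The median was -0.08, with a range from -0.17 (DLAT, of the complex) to -0.03 (PDP2, a phosphatase that opposes the kinases). The pigs were split, with each gene higher in 3 to 5 of 9 pigs and the summed level higher in 4. The median over the 8 genes varied between pigs with an SD of 0.20. Whether the 8 genes are independent signs was not tested. PDHA1, the catalytic subunit that PDK4 phosphorylates, had a change of -0.06 (-0.21 to 0.09). MPC1 and MPC2, the mitochondrial pyruvate carrier, had -0.06 (-0.21 to 0.08) and -0.08 (-0.21 to 0.06). PDK3, the one sister kinase measured, had -0.15 (-0.32 to 0.02), and 0.03 at its other probe set. DLAT, PDP2 and PDK3 were named after their values were seen, as were INSR, NR4A3, GADD45A, LEP and ADIPOQ further on.

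Along the carnitine shuttle and its control 0 of 9 genes passed (0 at an unadjusted p under 0.05), with a median of -0.0008. CPT1A, the liver form of the same enzyme, had a change of -0.0019 (-0.12 to 0.11) and CPT2, its partner at the inner membrane, -0.0008 (-0.14 to 0.13). The CPT2 probe set was dim, at 4.63 in both states where the median over all probe sets was 5.63, so a steady CPT2 level is not shown. SLC25A20, the carnitine-acylcarnitine carrier, had -0.07 (-0.21 to 0.06), and ACSL1, which activates long-chain fatty acids, had 0.06 (-0.08 to 0.19). CHKB, a choline kinase that directly neighbours CPT1B in the Sscrofa11.1 gene table, had -0.03 (-0.20 to 0.14).

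Partners of PGC-1alpha also gave 0 of 17 genes past the threshold (0 at an unadjusted p under 0.05), with a median of -0.01. RXRA, the receptor that pairs with PPARs, had a change of 0.10 (-0.05 to 0.26) and PPARA itself 0.07 (-0.11 to 0.25), both at dim probe sets whose other probe set lay below 0 (-0.02 and -0.13). TFAM, which maintains mitochondrial DNA, had -0.0091 (-0.18 to 0.16). PRKAA2, the main catalytic subunit of AMP kinase in muscle, had -0.02 (-0.25 to 0.21), and the muscle transcription factor MEF2A had -0.03 (-0.20 to 0.14).

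LPL, the lipase that ANGPTL4 inhibits, was among 8 measured genes of fatty acid uptake, of which 0 passed (0 at an unadjusted p under 0.05; median -0.03). At its brightest probe set LPL was lower in failure in pigs 13 (-1.79), 5 (-1.09), 12 (-0.73), 8 (-0.68) and 6 (-0.36). It was higher in pigs 9 (0.58), 10 (0.42), 14 (0.25) and 11 (0.23), with a mean of -0.35 ± 0.79 (SD, n = 9; -0.79 to 0.08). The ANGPTL4 changes were 0.25 to 1.01 in the 5 pigs with lower LPL and -0.10 to 0.24 in the 4 with higher LPL, a pattern noticed after the values were seen. Over 9 pigs the r between both changes was -0.578 (rho = -0.85), given as a description with no test because the relation was picked from these values. Without pigs 10 and 12 it was -0.727, and within the 6 pigs with the 120 min label -0.407.

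The LPL change was also set against the sign of RNA quality, a comparison added after the data had been seen. At the brightest probe set its r with the GAPDH 3′ minus 5′ change was -0.951 (rho = -0.95, exact permutation p = 4.41e-05 and 0.000353, adjusted over 4 relations 0.000176 and 0.00141). It was -0.877 without pigs 5 and 13 and -0.979 within the 6 pigs with the 120 min label. At the dimmer probe set r was -0.465 over 9 pigs (rho = -0.483, exact permutation adjusted p = 0.207 and 0.25), -0.893 without pigs 5 and 13 and -0.815 within the 120 min label. With the GAPDH measure taken out of both, the r of the brightest LPL probe set with ANGPTL4 was -0.266 (rho = -0.30). The dimmer LPL probe set had a mean change of 0.01, was higher in pig 5 (0.46) where the brightest was lower, and an r with ANGPTL4 of -0.524 (rho = -0.433). GPIHBP1, which anchors LPL to capillaries, had a change of -0.01 (-0.19 to 0.17), and FABP5, another fatty acid binding protein, had -0.04 (-0.17 to 0.09).

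**Figure D5:**
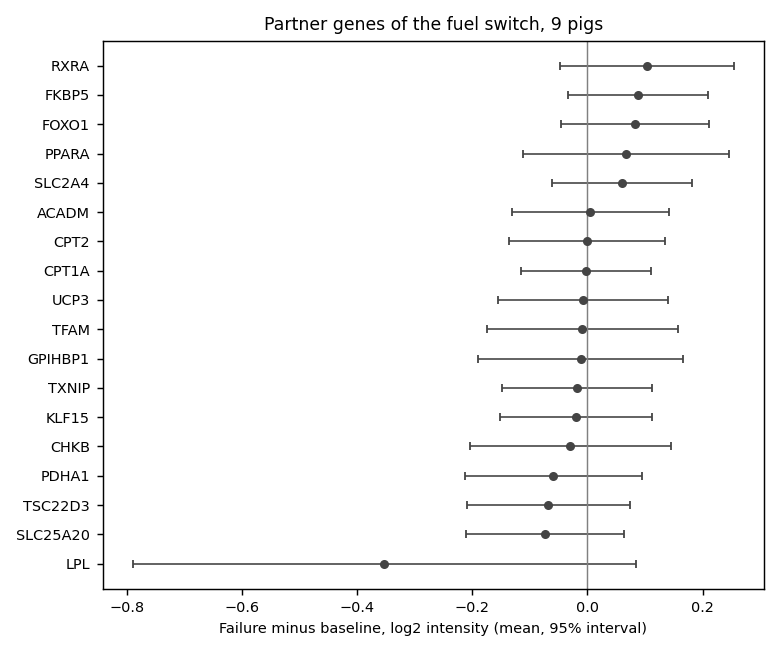
Mean failure minus baseline change (log2 intensity) with limma's 95% interval for 18 partner genes chosen by role, 9 pigs each, brightest probe set of each gene. LPL has the widest interval (-0.79 to 0.08), and every interval includes 0.

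Among storage and lipolysis genes 0 of 12 passed (1 at an unadjusted p under 0.05, PLIN2; median 0.02). PNPLA2, the first lipase of stored triglyceride, had a change of 0.07 (-0.12 to 0.27), and MGLL, the lipase of monoglycerides, had -0.02 (-0.19 to 0.15). For glucose uptake and entry into glycolysis 0 of 12 passed (1 at an unadjusted p under 0.05, INSR; median 0.03). SLC2A4, the insulin-responsive glucose transporter, had 0.06 (-0.06 to 0.18), TXNIP, which restrains glucose uptake, -0.02 (-0.15 to 0.11) and PFKM, muscle phosphofructokinase, -0.03 (-0.19 to 0.13).

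Lists of signals that act on PDK4 and ANGPTL4 gave no passing gene either. Glucocorticoid targets lay higher in 9 of 11, where 46.4% of all measured genes did (median 0.12, or 0.06 with all probe sets of a gene averaged; 0 passed, 2 at an unadjusted p under 0.05). These 2, named after their values were seen, were the transcription factors KLF9 (0.16, 8 of 9 pigs higher, -0.04 at its other probe set) and CEBPB (0.19, 6 of 9 pigs higher), with adjusted p = 0.637 and 0.753 in limma. DUSP1, a phosphatase of MAP kinases and likewise named afterwards, had the largest change of the list, 0.27 (-0.04 to 0.58). FKBP5, a chaperone induced by glucocorticoids, had a change of 0.09 (-0.03 to 0.21; 0.14 at its other probe set). GLUL, glutamine synthetase, had 0.12 (-0.01 to 0.25), but -0.0133 and 0.0088 at its other probe sets, so its change rests on 1 of 3. PER1, a clock gene, had 0.02 (-0.12 to 0.16; 0.07 at its other probe set). TSC22D3 had -0.07 (-0.21 to 0.07; 0.07 at its other probe set) and KLF15 -0.02 (-0.15 to 0.11). FOXO genes and their targets had a median of -0.02 over 12 (0 passed, 1 at an unadjusted p under 0.05, GADD45A). FOXO1 had a change of 0.08 (-0.05 to 0.21) and SOD2, mitochondrial superoxide dismutase, -0.10 (-0.28 to 0.09). Hypoxia targets had a median of -0.0033 over 12 (0 passed, 0 at an unadjusted p under 0.05), with VEGFA at 0.07 (-0.11 to 0.25; -0.06 to 0.29 at its other probe sets) and the glycolytic gene PGK1 at -0.02 (-0.18 to 0.14). Genes of cAMP and CREB signalling had a median of 0.02 over 10 (0 passed, 1 at an unadjusted p under 0.05, NR4A3), with PRKAR1A, a regulatory subunit of protein kinase A, at 0.02 (-0.10 to 0.14).

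Markers of other cells were read beside the members, since fewer cells of a type and less RNA per cell cannot be told apart in whole tissue. Adipocytes express ANGPTL4, and 7 of 7 measured adipocyte markers lay higher in failure, where 46.4% of all measured genes did (median 0.11, 0 passed, 2 at an unadjusted p under 0.05, CFD and LEP). Their summed level was 11.28 to 11.90 in failure and 11.11 to 11.89 at baseline. CFD had a change of 0.24, FABP4 of 0.07, and ADIPOQ, the defining marker, stayed dim at 3.55 and 3.52. Of the 7 markers 3 lay above the median level of all probe sets. These were CFD, LEP and FABP4, higher in 9, 8 and 6 of 9 pigs. The others were dim and higher in at most 5 of 9 pigs, so a fat cell signal is not shown by the 7 of 7. The part of fat cells in the ANGPTL4 values was not tested. Red blood cell markers lay lower in 5 of 5 (median -0.83), HBB by the least (-0.24), and ALAS2, AHSP and HBM passed (adjusted p = 0.00486, 0.0205 and 0.0208 in limma). Their summed level was 8.64 to 9.86 in failure and 9.49 to 11.08 at baseline, and their part in the member changes was not tested. Among all probe sets 0.046% passed lower. Since the list was written with earlier results of these data known, its calls are a description.

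Cardiomyocyte markers had a median of -0.04 over 12 (MYH7 -0.01, TNNI3 -0.04), with a summed level of 17.31 to 17.71 in failure and 17.49 to 17.67 at baseline. Endothelial markers had a median of 0.01 over 10 (PECAM1 0.04, CDH5 -0.0070) and fibroblast markers 0.07 over 7 (DCN 0.08, LUM 0.09). The other probe sets of PECAM1, CDH5 and DCN had -0.08, -0.10 and -0.01. Macrophage markers had a median of -0.04 over 7 (C1QC -0.20, CD163 0.02 but 0.38 at its other probe set). Atrial markers had a median of 0.23 over 4, with PAM at -0.02. NPPA, the atrial natriuretic peptide, which ventricles also make under load, averaged 9.01 ± 0.98 in failure and 7.91 ± 1.39 at baseline (SD, n = 9 each). Its change of 1.11 (0.47 to 1.74; 8 of 9 pigs higher) had an adjusted p of 0.432 in limma. None of the genes in these 5 lists passed in limma (0, 0, 1, 0 and 1 at an unadjusted p under 0.05).

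Over the 18 arrays, levels most like each member were looked up among 4920 genes above the median level, as a description of arrays that share pigs. For PDK4 these were PRPF19 (r = 0.793), PPP1R15A (0.739) and GABARAPL1 (0.731), where the 95th percentile of all candidates was 0.438. The genes named for each member were picked as the highest, so they lie above this percentile by construction. ANGPTL4 was most like SYS1 (0.856), TIMP1 (0.816) and PHLDA2 (0.809), with a 95th percentile of 0.451. CPT1B was most like PPM1G (0.818), UBL7 (0.814) and COX6A1 (0.812), with a 95th percentile of 0.517. PPARGC1A was most like DDX21 (0.918), NAMPT (0.883) and RNF19B (0.88), with a 95th percentile of 0.631. In the changes of the 9 pigs, r with PDK4 was 0.0814 for PRPF19, -0.0524 for PPP1R15A and 0.363 for GABARAPL1. With ANGPTL4 it was 0.323 for SYS1, 0.582 for TIMP1 and 0.439 for PHLDA2. With CPT1B it was 0.315 for PPM1G, 0.766 for UBL7 and 0.542 for COX6A1, and with PPARGC1A 0.675 for DDX21, 0.706 for NAMPT and 0.44 for RNF19B.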

How the data were processed

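Tissue RNA of 9 pigs in failure and at baseline was hybridised to 18 Affymetrix arrays of the 3′ IVT kind, as stated in the labels. The authors deposited 1 log2 intensity for each probe set and array. Partek stands without a version in the submitters' processing notes. Background correction, normalization and genome build were not found in the labels or headers, so genome positions are not printed. Depth has no counterpart on arrays, where the number of animals limits the precision.

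Of 24123 probe sets, 188 controls were left out and 23935 were tested. The probe table names 1 gene for 10099 probe sets, several for 198 and lists no gene for 13826. Failure was compared with baseline with limma 3.58.1 in R 4.3.3 (pig as a block, p-values adjusted by Benjamini-Hochberg across the 23935 probe sets, threshold 0.05). Pairing comes from the pig numbers in the labels. With group means removed, both arrays of 1 animal had an r of 0.449 to 0.75, and 9 of 9 matched their own partner best. Correlations used Pearson's r and Spearman's rho with exact permutation tests over all 362880 orders of 9 pigs. The members and gene lists were chosen with earlier results of these data known. Genes to be named were all members, 28 partners chosen by role (18 measured), the 2 brightest genes of each list, listed genes past the threshold and the 3 genes most like each member. Each gene outside the members stands by its brightest probe set. Alternatives were other blocks, scalings, filters, variance models, a GAPDH covariate, probe set averages and pigs left out.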

Additional observations from a re-analysis of the deposited data

Results flagged for a closer look

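At baseline the GAPDH 3′ minus 5′ difference of pig 5 was 2.61, against 0.61 to 1.49 in the other 8 pigs, far enough from them to stand apart. In 21 groups of values looked at in this way, 1 stood apart, where chance gives about 1 in 20. In that pig the PDK4, ANGPTL4, CPT1B and PPARGC1A differences at the brightest probe sets were 0.08, 0.57, -0.14 and 0.62.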

How the results depend on the processing

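Member changes moved by less than the spread between pigs under every alternative run, and none put a member probe set past the threshold. The count of 16 probe sets past the threshold (paired fit with the replicate block) was 0 with no replicate block (440 at an unadjusted p under 0.05), 0 in an unmoderated paired test (1431), 9 without probe sets under the median level, 9 with the GAPDH covariate, 3 within the 120 min label and 0 within the pressure label (1211). With each pig left out it ran from 2 (pig 10) to 26 (pig 8), with 3 without pig 9, 4 without pig 11 or 12, 5 without pig 13 and 9 without pig 5. Leaving out pigs moved the mean change between 0.17 and 0.25 for PDK4, 0.27 and 0.41 for ANGPTL4, -0.03 and 0.03 for CPT1B and -0.12 and 0.01 for PPARGC1A.

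Of the correlations of changes, those of PDK4 with CPT1B (0.0167) and with PPARGC1A (-0.0667) turned sign as Spearman's rho. Without the 2 farthest pigs, PDK4 with ANGPTL4 (0.166), with CPT1B (0.227) and with PPARGC1A (-0.341) and ANGPTL4 with PPARGC1A (0.184) turned. Within the 120 min label ANGPTL4 with CPT1B turned (0.164). With averaged probe sets PDK4 with ANGPTL4 (0.335) and ANGPTL4 with PPARGC1A (0.0884) turned, and with the dimmer probe sets PDK4 with ANGPTL4 (0.338), ANGPTL4 with CPT1B (0.0399) and ANGPTL4 with PPARGC1A (0.171). ANGPTL4 with PPARGC1A turned with quantile normalization (0.0831), and with the GAPDH measure taken out so did it (0.0451) and PDK4 with ANGPTL4 (0.111). None of these passed, and the cause was not tested. With each pig left out, r ran from -0.39 to -0.0148 (PDK4 with ANGPTL4), -0.578 to 0.171 (PDK4 with CPT1B), -0.0127 to 0.359 (PDK4 with PPARGC1A), -0.395 to 0.0598 (ANGPTL4 with CPT1B), -0.303 to 0.324 (ANGPTL4 with PPARGC1A) and -0.658 to -0.457 (CPT1B with PPARGC1A).

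Baseline levels of CPT1B with PPARGC1A turned sign as rho (-0.267) and without the 2 farthest pigs (-0.288), as did ANGPTL4 with PPARGC1A (-0.0789), whereas ANGPTL4 with CPT1B passed there (0.926, exact permutation adjusted p = 0.0286). Failure against baseline levels no longer passed as rho for the dimmer PDK4 (0.683), dimmer ANGPTL4 (0.717), CPT1B (0.517) and PPARGC1A (0.667) probe sets. Without the 2 farthest pigs none passed (0.865 and 0.71 for PDK4, 0.81 and 0.776 for ANGPTL4, 0.212 for CPT1B, 0.598 for PPARGC1A), nor within the 120 min label (0.926, 0.848, 0.857, 0.794, 0.518 and 0.745 in the same order), where fewer pigs were tested. With each pig left out they ran from 0.918 to 0.979 and 0.792 to 0.928 for PDK4, 0.813 to 0.935 and 0.676 to 0.883 for ANGPTL4, 0.622 to 0.904 for CPT1B and 0.702 to 0.877 for PPARGC1A. Calls were lost without pig 14 for CPT1B (0.622) and the dimmer ANGPTL4 probe set (0.676), and without pig 10 for PPARGC1A (0.702), with exact permutation adjusted p = 0.102, 0.0796 and 0.053. The ANGPTL4 probe sets turned to -0.0167 as rho, -0.487 without the 2 farthest pigs and -0.0642 within the 120 min label. CPT1B with the GAPDH change turned to 0.459 and 0.284 under the last 2 of these. ANGPTL4 with LPL, picked from these values, was -0.85 as rho. The dimmer LPL probe set with the GAPDH change was likewise compared after the data had been seen. It passed without pigs 5 and 13 (-0.893, exact permutation adjusted p = 0.0127) but not over 9 pigs (-0.465, exact permutation adjusted p = 0.207). With the GAPDH measure taken out, ANGPTL4 with LPL was 0.281 within the 120 min label, and 0.0641 for the dimmer LPL probe set without the 2 farthest pigs. The number of animals limits the precision.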
